A study of Mus musculus with 8 samples.

Results

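The genes described here are the subunits of the transcription factor NF-kB and its feedback inhibitors, 10 named genes taken by symbol from the 55487 Ensembl genes of the deposited files: Rela, Rel, Relb, Nfkb1 and Nfkb2, which encode the subunits, and Nfkbia, Nfkbid, Nfkbiz, Bcl3 and Tnfaip3, which encode inhibitors, regulators and a feedback enzyme. They were measured in libraries labelled as CD8+ tumor-infiltrating lymphocytes of mice, after tacrolimus, a calcineurin inhibitor used against graft rejection, or vehicle. Melanoma transcripts were abundant in all of these libraries, as described below. C57BL/6 mice carried subcutaneous B16F10 tumors, from a cultured mouse melanoma line injected 7 to 9 days earlier. At a tumor volume near 50 mm3, 4 mice began tacrolimus (FK506, 3 mg/kg by intraperitoneal injection, repeated every 5 days) and 4 began vehicle on the same schedule. Tumors were harvested on day 6 of treatment, and CD8+ lymphocytes were sorted from the digested tissue, so that both groups share the host strain, the tumor line and the sort. Each library is labelled with its own number, F1 to F4 for tacrolimus and V1 to V4 for vehicle, and is called here by group and replicate number. The design text counts 4 mice per group, which matches 1 library per mouse, and calls the controls untreated where the labels say vehicle. Sex and age of the mice are not given in the sources used here.

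NF-kB proteins act as dimers that are held in the cytoplasm until an upstream signal frees them. In the canonical pathway, signals from antigen receptors, TNF receptors and Toll-like receptors lead to destruction of the inhibitor IkB-alpha, and dimers containing RelA or c-Rel enter the nucleus. In the alternative pathway, processing of the p100 precursor releases dimers with RelB. Several inhibitors, among them Nfkbia and Tnfaip3, are themselves NF-kB target genes, so that they shut off the signal that induced them. In T cells, the T cell receptor drives NF-kB through protein kinase C theta, while tacrolimus blocks the calcineurin and NFAT branch. NF-kB is also active in macrophages and in many tumor cells.

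The promoter sequences are shown first because the feedback genes are known for NF-kB sites near their start. RefSeq promoter windows (GRCm38.p6, from 250 bases before the start site to 50 bases after it) were at hand for 7 of the 10 genes, 12 windows in all. Windows were searched on both strands for the NF-kB consensus, the 10-base kappa B motif. The consensus was present in 8 of the 12 windows, against 8.46% of all 32851 windows and 10.3% of the 12289 windows of genes tested here. A pair of these 8, both of Nfkb2, overlap and share a single match (GGGACTTTCC), so that the windows are not independent. By gene, 6 of the 7 had a match, for which no share over all genes was computed. Base composition differs between these sets: GC content ran from 47% to 75% in the 12 windows, and its median was 52.7% over all windows and 60.3% over windows of tested genes. The windows of 5 genes are printed 5′ to 3′ on the strand of the gene, with every match to the consensus in capitals. They were taken to show the most abundant inhibitor, the 2 genes with the largest range across libraries, a subunit gene with overlapping matches and the subunit gene without a match.
Nfkbia, chr12:55492598-55492897, minus strand: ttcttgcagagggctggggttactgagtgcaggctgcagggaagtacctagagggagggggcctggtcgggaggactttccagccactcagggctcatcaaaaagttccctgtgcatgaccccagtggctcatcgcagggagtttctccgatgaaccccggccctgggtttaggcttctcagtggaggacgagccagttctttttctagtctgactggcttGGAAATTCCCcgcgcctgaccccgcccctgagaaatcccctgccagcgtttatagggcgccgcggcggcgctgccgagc
Tnfaip3, chr10:19015361-19015660, minus strand: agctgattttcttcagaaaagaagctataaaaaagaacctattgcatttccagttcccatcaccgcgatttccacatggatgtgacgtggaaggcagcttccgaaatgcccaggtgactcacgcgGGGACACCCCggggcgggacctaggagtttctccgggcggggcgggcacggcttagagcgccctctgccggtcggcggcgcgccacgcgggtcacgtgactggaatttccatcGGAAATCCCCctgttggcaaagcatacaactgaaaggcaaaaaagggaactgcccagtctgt
Nfkbid, chr7:30422156-30422455, plus strand: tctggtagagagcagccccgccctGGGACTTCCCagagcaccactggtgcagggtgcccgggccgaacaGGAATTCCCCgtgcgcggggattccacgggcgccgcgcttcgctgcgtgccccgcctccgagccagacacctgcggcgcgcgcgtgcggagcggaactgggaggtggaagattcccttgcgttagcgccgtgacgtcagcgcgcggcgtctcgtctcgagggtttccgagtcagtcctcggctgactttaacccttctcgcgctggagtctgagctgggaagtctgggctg
Nfkb2, chr19:46304487-46304786, plus strand: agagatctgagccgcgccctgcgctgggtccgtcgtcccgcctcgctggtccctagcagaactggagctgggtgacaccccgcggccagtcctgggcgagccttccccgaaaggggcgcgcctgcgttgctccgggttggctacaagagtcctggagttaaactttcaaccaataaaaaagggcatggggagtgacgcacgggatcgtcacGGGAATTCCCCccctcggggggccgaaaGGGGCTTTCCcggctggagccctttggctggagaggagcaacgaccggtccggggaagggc
Rela, chr19:5637291-5637590, plus strand: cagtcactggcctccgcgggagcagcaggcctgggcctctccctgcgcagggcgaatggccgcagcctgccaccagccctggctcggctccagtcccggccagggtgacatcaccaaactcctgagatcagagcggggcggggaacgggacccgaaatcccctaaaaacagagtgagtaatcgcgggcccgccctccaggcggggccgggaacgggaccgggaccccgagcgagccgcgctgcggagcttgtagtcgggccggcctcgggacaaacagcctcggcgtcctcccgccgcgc

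In the Nfkbia window the match GGAAATTCCC began 29 bases upstream of the start site. The Tnfaip3 window held GGGACACCCC at 125 bases and GGAAATCCCC at 12 bases upstream. The Nfkbid window held GGGACTTCCC at 226 bases and GGAATTCCCC at 181 bases upstream. In the Nfkb2 window the matches GGGAATTCCC and GGAATTCCCC, at 39 and 38 bases upstream, overlap each other, and GGGGCTTTCC began 11 bases upstream. Rel also held overlapping matches (GGGAAATCCC and GGAAATCCCC, 92 and 91 bases upstream), and Bcl3 held 1 match just after the start site. The AP-1 motif TGANTCA occurred in 2 of the 12 windows, 1 each of Tnfaip3 and Nfkb2 (7.81% of all windows). The NFAT core GGAAAA occurred in 2 windows, both of Nfkbid (23.4% of all windows). A match is a description of letters in these windows, and its use in these cells was not measured. Nfkb1, Relb and Nfkbiz had no window in the table.

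All 10 genes were expressed in every library. Values are FPKM, fragments scaled to transcript length and to library size, so that levels can be compared between genes per length. All 10 passed the minimum of 1 FPKM in at least 4 libraries, which 13032 genes of the files met. By mean level in the tacrolimus group, Nfkbia stood first at 80.0 ± 16.5 FPKM (SD, n = 4), followed by Rela at 17.1 ± 1.62, Nfkb1 at 11.1 ± 3.93 and Tnfaip3 at 9.14 ± 3.75. Nfkbiz (7.61 ± 0.14), Nfkb2 (7.01 ± 1.14), Bcl3 (5.62 ± 1.01) and Relb (4.28 ± 0.44) came next, and Rel (3.02 ± 0.62) and Nfkbid (1.92 ± 0.78) were lowest. In those 4 libraries, neighbors in this order had overlapping ranges, except that Nfkbia lay above Rela throughout and Bcl3 (lowest 4.75) above Relb (highest 4.62). With vehicle the order of means was Nfkbia (226), Tnfaip3 (38.6), Rela (28.1), Nfkbiz (15.7), Nfkb1 (14.7), Nfkb2 (14.4), Nfkbid (9.03), Relb (8.49), Bcl3 (7.53) and Rel (5.94), and vehicle replicate 1 raised several of these means. The lowest single value, 0.92 FPKM for Nfkbid in tacrolimus replicate 2, corresponds to roughly 30.4 fragments if the longest annotated transcript was the one expressed. That number uses the full transcript length. The depth estimate behind it took 280 bases off each length, and with a length shortened in that way the number would be lower.

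**Figure D1:**
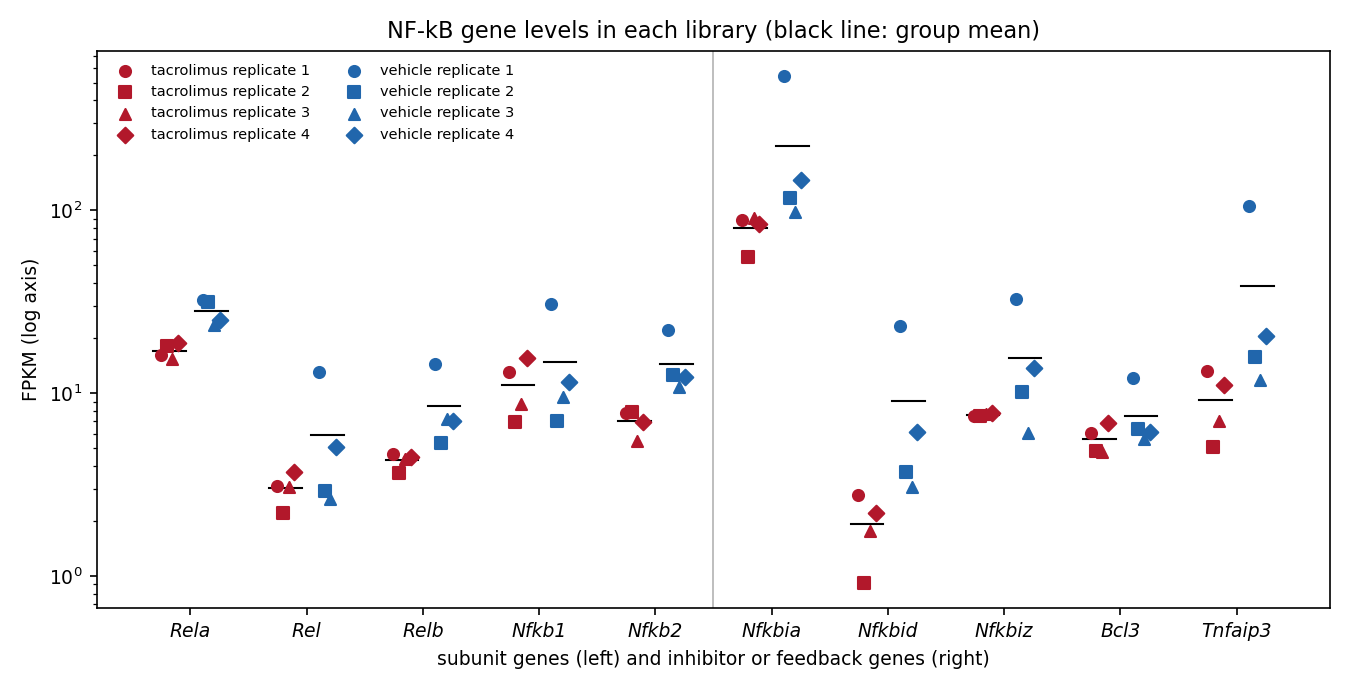
FPKM (log axis) of each gene in each of the 8 libraries, tacrolimus in red and vehicle in blue, with 1 marker shape per replicate number and a black line at the group mean. Vehicle replicate 1 (blue circle) was the highest library for all 10 genes, and tacrolimus and vehicle points do not overlap for Rela, Relb, Nfkb2, Nfkbia and Nfkbid.

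The libraries hold RNA of several cell types, and 1 of them stands apart. Melanoma markers were abundant everywhere (summed level of 8 genes, 22034 to 27022 FPKM with tacrolimus and 18455 to 33514 with vehicle) although the libraries are labelled as sorted CD8+ lymphocytes, and the melanocyte gene Pmel alone was at 4223 to 7772 FPKM. The defining gene Cd8a ranged from 3.40 to 33.2 FPKM under tacrolimus and from 36.9 to 153 under vehicle. All 13 T cell markers were above 0 in every library, and their summed level ran from 61.6 to 481 FPKM with tacrolimus and from 494 to 2216 with vehicle. All 13 macrophage and monocyte markers were present too, at 243 to 571 FPKM with tacrolimus and 511 to 2087 with vehicle. Neutrophil (6 genes, 13.2 to 45.8 against 31.1 to 338 FPKM) and dendritic cell markers (8 genes, 83.0 to 137 against 105 to 776 FPKM) were lower, with Mpo at 0 in all libraries. B and plasma cell (6 genes), natural killer (5 genes), fibroblast (6 genes) and endothelial markers (6 genes) summed to at most 7.82, 40.6, 72.0 and 21.3 FPKM. Vehicle replicate 1 was highest for the T cell, macrophage, neutrophil, dendritic cell, B and plasma cell, natural killer and fibroblast sums. It was lowest for melanoma, and the endothelial sum was highest in tacrolimus replicate 4. Tacrolimus replicate 2 was lowest for the T cell and macrophage sums. In such bulk RNA, fewer cells of a type and less RNA per cell cannot be told apart, and which cells the NF-kB transcripts came from was not measured.

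**Figure D2:**
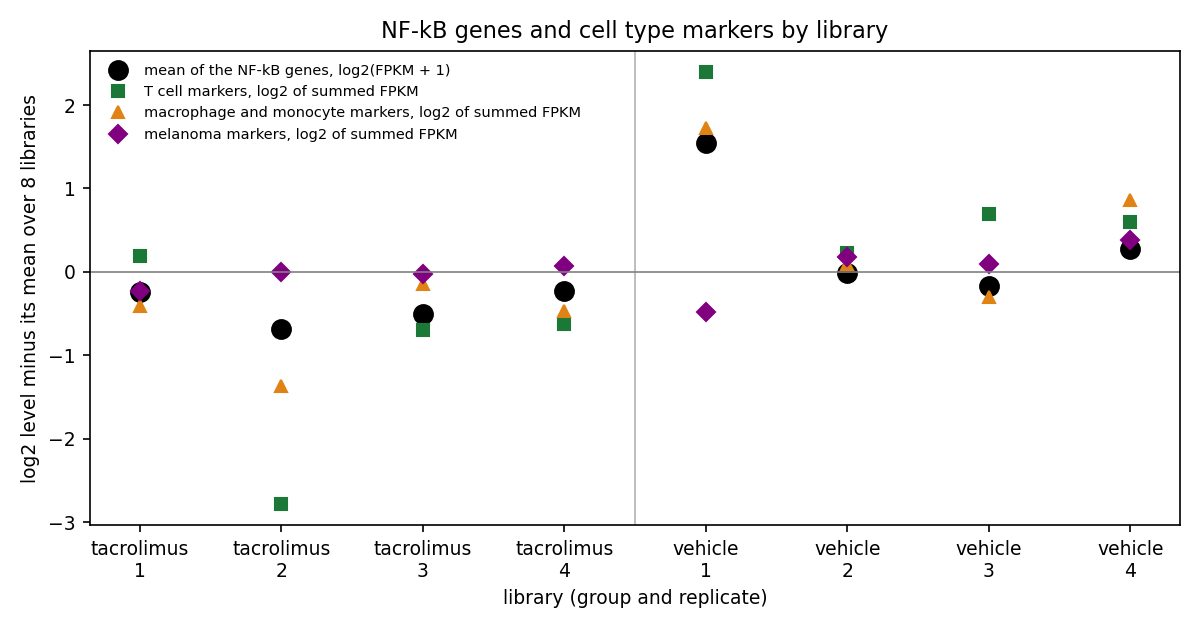
Centred log2 level in each library (x axis, group and replicate) of the mean of the 10 NF-kB genes (black) and of the summed T cell, macrophage and monocyte, and melanoma markers. The NF-kB mean was 1.55 above its 8-library average in vehicle replicate 1 and 0.68 below it in tacrolimus replicate 2, the same libraries in which the T cell and macrophage sums were highest and lowest.

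The main comparison asked whether these genes differed between tacrolimus and vehicle mice. All 10 had a lower mean log2 level with tacrolimus, with a median difference of -0.74 on the log2(FPKM + 1) scale, but none passed the test. Over all 13032 genes tested, 75.7% had a lower mean with tacrolimus and the median difference was -0.19. No gene of the whole table passed an adjusted p of 0.05 in limma with Benjamini-Hochberg adjustment (0% called), and the smallest adjusted p among the 10 was 0.179, for Rela. At an unadjusted p under 0.05, 6 of the 10 were lower (Rela, Relb, Nfkb2, Nfkbia, Nfkbid and Tnfaip3) and none higher. The share over all tested genes was 15.8% (2056 genes) for lower and 1.60% (208 genes) for higher. The groups did not overlap for 5 of the 10, against 10.2% of all tested genes. The 10 genes were chosen with earlier results of these data known, so these shares are descriptive. T cell and macrophage markers moved with the groups in the same way: all 13 of each list had a lower mean with tacrolimus, none passed the test, and their part in the differences of the NF-kB genes was not tested.

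The scaling of the libraries and vehicle replicate 1 both bore on these counts. Median-of-ratios scaling moved the median of all tested genes from -0.19 to -0.00 (log2), with 50.2% of them lower. After it, all 10 were still lower on average with a median of -0.54. Rela, Nfkb2 and Nfkbid were then at an unadjusted p under 0.05 (6.15% of all tested genes), and the groups did not overlap for Rela and Nfkb2 (3.67%). Without vehicle replicate 1, the same 6 genes were at an unadjusted p under 0.05 (19.2% of all tested genes) and the same 5 did not overlap (19.0%). The median difference of the 10 was then -0.55, and Nfkb1 had a higher mean with tacrolimus.

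**Figure D3:**
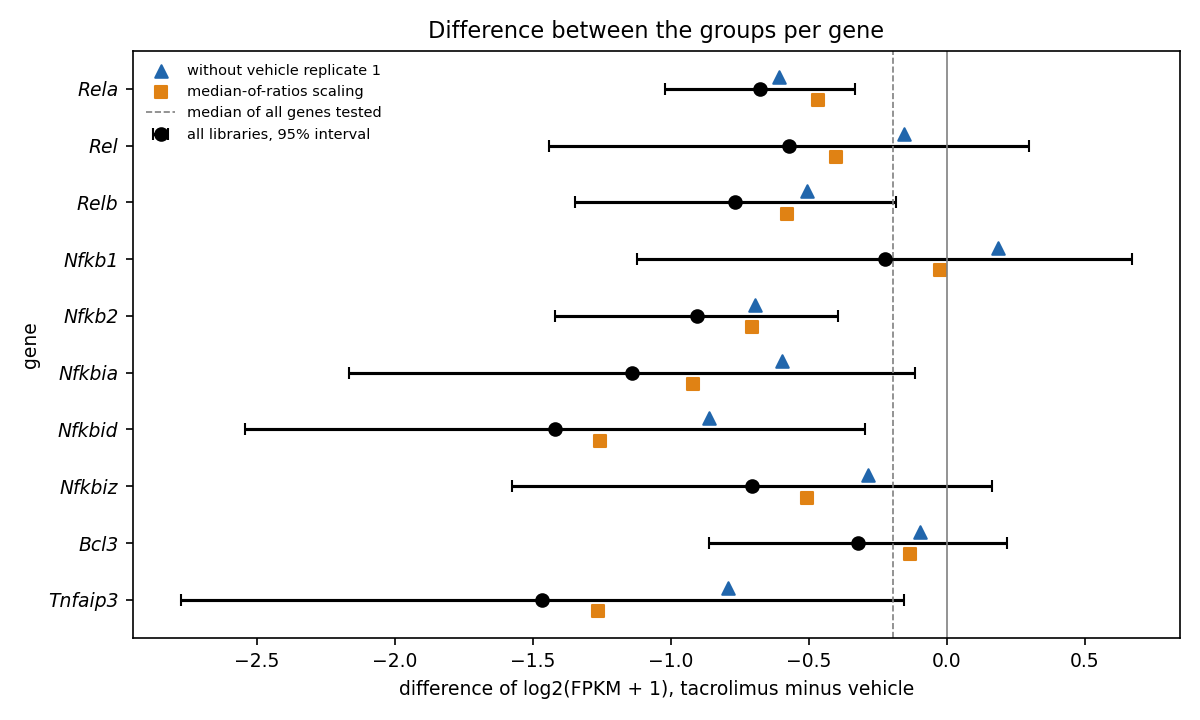
Difference of log2(FPKM + 1) between tacrolimus and vehicle for each gene (black, with the 95% interval from limma), with the value without vehicle replicate 1 (blue triangle) and after median-of-ratios scaling (orange square). The intervals of Rel, Nfkb1, Nfkbiz and Bcl3 include 0, and Nfkb1 lies at 0.18 without vehicle replicate 1.

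Among the subunits, Rela and Nfkb2 showed the most even separation. Rela (ENSMUSG00000024927; GRCm38 chromosome 19, 5637483 to 5648130) encodes the transactivating subunit p65 of the canonical pathway. It was at 16.1, 18.2, 15.4 and 18.7 FPKM in tacrolimus replicates 1 to 4 and at 32.3, 31.4, 23.7 and 25.1 in vehicle replicates 1 to 4. Every vehicle library was above every tacrolimus library, and vehicle replicate 1 was close to replicate 2. The group means were 17.1 ± 1.62 and 28.1 ± 4.39 FPKM, and the fitted difference was -0.68 (log2; SE 0.15, limma adjusted p = 0.179). Without vehicle replicate 1 the difference was -0.61 (SE 0.16), so the Rela difference rested little on that library. It depended more on scaling, at -0.47 (SE 0.13) after median-of-ratios scaling and -0.37 with vehicle replicate 1 left out as well.

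Nfkb2 (ENSMUSG00000025225; chromosome 19, 46304320 to 46312385) encodes p100, the precursor of p52 and an inhibitor of RelB dimers. It was at 7.79, 7.90, 5.44 and 6.91 FPKM with tacrolimus and at 22.2, 12.6, 10.9 and 12.2 with vehicle. The groups were again apart, and vehicle replicates 2 to 4 lay within a narrow band below replicate 1. Tacrolimus minus vehicle was -0.91 (SE 0.23, limma adjusted p = 0.183) and -0.69 (SE 0.18) without vehicle replicate 1. After median-of-ratios scaling it was -0.71 (SE 0.24), and -0.47 with vehicle replicate 1 left out as well. On the opposite strand AC114539.1, annotated as a bidirectional promoter noncoding RNA, overlaps 1292 bases of the gene and was at 2.1 to 5.31 FPKM. Other overlapping genes were lower: Psd with Nfkb2 (at most 1.6 FPKM), Gm43430 with Nfkb1 on the same strand (1.26), and Gm16174 (2.02) and Gm16175 (0) with Bcl3. Whether the counting used strand is not given in the sources used here.

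Relb (ENSMUSG00000002983; chromosome 7, 19606217 to 19629438) encodes the subunit of the alternative pathway. It was at 4.62, 3.64, 4.38 and 4.49 FPKM with tacrolimus and at 14.4, 5.34, 7.24 and 7.02 with vehicle. The lowest vehicle value was just above the highest tacrolimus value, and after median-of-ratios scaling the groups overlapped. The log2 difference was -0.77 (SE 0.26, limma adjusted p = 0.214) and -0.51 without vehicle replicate 1.

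Nfkb1 and Rel differed between the groups mainly through vehicle replicate 1. Nfkb1 (ENSMUSG00000028163; chromosome 3, 135584655 to 135691547) encodes p105, the precursor of p50, the partner of RelA in the most common dimer. It was at 13.1, 6.98, 8.72 and 15.5 FPKM with tacrolimus and at 30.7, 7.06, 9.52 and 11.6 with vehicle. Outside vehicle replicate 1 the vehicle values lay inside the tacrolimus range, and tacrolimus replicate 4 was the second highest of the 8. The log2 difference of -0.22 (SE 0.40, limma adjusted p = 0.783) turned to 0.18 (SE 0.28) without vehicle replicate 1.

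Rel (ENSMUSG00000020275; chromosome 11, 23736847 to 23770970) encodes c-Rel, the subunit prominent in activated lymphocytes. It was at 3.09, 2.20, 3.06 and 3.72 FPKM with tacrolimus and at 13.1, 2.93, 2.65 and 5.05 with vehicle. Vehicle replicates 2 and 3 lay among the tacrolimus libraries. On the log2 scale the difference was -0.57 (SE 0.39, limma adjusted p = 0.449) and -0.15 without vehicle replicate 1.

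Among the inhibitors, Nfkbia (ENSMUSG00000021025; chromosome 12, 55489410 to 55492647) encodes IkB-alpha, the inhibitor that is degraded and resynthesized in each round of canonical signaling. It was at 88.8, 55.7, 91.3 and 84.3 FPKM with tacrolimus and at 543, 118, 98.1 and 147 with vehicle. All vehicle libraries were above all tacrolimus libraries, vehicle replicate 3 by a small margin and replicate 1 by far, but the groups overlapped after median-of-ratios scaling. The log2 difference was -1.14 (SE 0.46, limma adjusted p = 0.253). Without vehicle replicate 1 the vehicle mean was 121 ± 24.6 FPKM in place of 226 ± 212, and the difference was -0.60 (SE 0.21).

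Nfkbid (ENSMUSG00000036931; chromosome 7, 30421732 to 30428746) encodes IkB-NS, a nuclear member of the IkB family that is induced by receptor signals in lymphocytes. It was at 2.77, 0.92, 1.77 and 2.21 FPKM with tacrolimus and at 23.2, 3.70, 3.08 and 6.12 with vehicle. Before rescaling, every vehicle value was above every tacrolimus value, and after median-of-ratios scaling the groups overlapped. The log2 difference was -1.42 (SE 0.50, limma adjusted p = 0.222), and -0.86 (SE 0.29) without vehicle replicate 1. In that setting the vehicle mean of 4.30 FPKM was 2.24 times the tacrolimus mean, the largest such ratio of the 10 genes.

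Nfkbiz (ENSMUSG00000035356; chromosome 16, 55811375 to 55838899) encodes IkB-zeta, a nuclear coactivator of a subset of NF-kB targets. It was at 7.53, 7.47, 7.68 and 7.77 FPKM with tacrolimus, a coefficient of variation of 1.80%, and at 32.7, 10.1, 6.05 and 13.8 with vehicle. The tacrolimus values were nearly identical, and the vehicle values lay on both sides of them. The log2 difference was -0.71 (SE 0.39, limma adjusted p = 0.362) and -0.29 without vehicle replicate 1.

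Bcl3 (ENSMUSG00000053175; chromosome 7, 19808462 to 19822770) encodes a nuclear IkB protein that binds p50 and p52 homodimers. It was at 6.07, 4.82, 4.75 and 6.84 FPKM with tacrolimus and at 12.1, 6.33, 5.63 and 6.12 with vehicle. Vehicle replicates 2 to 4 were within the tacrolimus range. On the log2 scale the difference was -0.32 (SE 0.24, limma adjusted p = 0.489) and -0.10 without vehicle replicate 1.

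Tnfaip3 (ENSMUSG00000019850; chromosome 10, 19000910 to 19015657) encodes A20, the ubiquitin-editing enzyme that ends TNF receptor and Toll-like receptor signaling. It was at 13.3, 5.09, 7.03 and 11.1 FPKM with tacrolimus and at 106, 15.7, 11.7 and 20.7 with vehicle. Only vehicle replicate 3 lay inside the tacrolimus range, below tacrolimus replicate 1. The log2 difference of -1.47 (SE 0.59, limma adjusted p = 0.252) was the most negative of the 10, and it was -0.79 (SE 0.31) without vehicle replicate 1. The vehicle mean was 38.6 ± 45.2 FPKM with that library and 16.0 ± 4.46 without it.

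The genes differed in how far vehicle replicate 1 stood above the other vehicle libraries. Over all tested genes this library was the highest of the 8 for 20.2%, and its median log2 excess over the other vehicle libraries was -0.11. For the 10 NF-kB genes the median excess was 1.65. In FPKM, it had 6.62 times the mean of the other vehicle libraries for Tnfaip3, 5.40 times for Nfkbid and 4.50 times for Nfkbia. The ratio was 3.70 for the subunit gene Rel and 3.28 for both Nfkb1 and the inhibitor gene Nfkbiz. It was between 1.87 and 2.20 for Nfkb2, Relb and the inhibitor gene Bcl3, and 1.21 for Rela. The highest ratios were thus those of inhibitor or feedback genes, and the lowest those of the subunit genes Nfkb2 and Rela. Between these the classes were mixed. The same library had 153 FPKM of the T cell gene Cd8a, 123 of the leukocyte gene Ptprc and 876 of the macrophage gene Lyz2, each the highest of the 8 libraries. The part of cell composition in these ratios was not tested. At the other end, tacrolimus replicate 2 was the lowest library for 6 genes (Nfkb1, Rel, Relb, Nfkbia, Nfkbid and Tnfaip3), tacrolimus replicate 3 for Rela, Nfkb2 and Bcl3, and vehicle replicate 3 for Nfkbiz. Cd8a was at 3.40 FPKM and Ptprc at 5.72 in tacrolimus replicate 2, while its Rela level of 18.2 FPKM was second among the tacrolimus libraries.

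Ratios within a library do not depend on how libraries were scaled, and they were used to describe the balance between the genes. On this measure, log2 of a gene's FPKM over that of Rela, the groups overlapped for all 9 other genes. Rela itself was lower in every tacrolimus library than in any vehicle library, so every ratio carries the Rela difference. Nfkbia was above Rela in every library, by 3.06 to 5.95 times with tacrolimus and by 3.74 to 16.8 times with vehicle. Among the vehicle libraries other than replicate 1 the highest Nfkbia ratio was 5.86, inside the tacrolimus range. The mean log2 ratio of Nfkbia was 2.20 ± 0.43 with tacrolimus, 2.64 ± 0.99 with vehicle and 2.17 with vehicle replicate 1 left out.

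With all libraries the largest mean difference in these ratios was that of Nfkbid, at -3.26 ± 0.74 with tacrolimus and -2.13 ± 1.20 with vehicle, and the difference of -1.13 was -0.57 without vehicle replicate 1. Tnfaip3 was below Rela in all libraries but vehicle replicate 1, where it was 3.28 times Rela. Nfkb1, Bcl3 and Rela all had a lower mean with tacrolimus (-0.22, -0.32 and -0.68 on the log2(FPKM + 1) scale). Relative to Rela, Nfkb1 and Bcl3 had a higher mean with tacrolimus, by 0.47 and 0.34 on the log2 scale. Leaving out 1 library at a time moved the Nfkb1 value between 0.14 (without vehicle replicate 2) and 0.84 (without vehicle replicate 1, then the largest of the 9) and the Bcl3 value between 0.23 and 0.52. The Rel value of 0.03 changed sign with the library left out, from -0.27 to 0.44. Without vehicle replicate 1, Nfkbiz (0.33), Nfkbia (0.04) and Relb (0.03) were also above 0. With vehicle replicate 1 left out, Bcl3 itself differed by -0.10 and Rela by -0.61 on the log2(FPKM + 1) scale. The Bcl3 ratios of the tacrolimus libraries (-1.92 to -1.41) were then all above those of the vehicle libraries (-2.31 to -2.03). This feature was singled out after the values were seen. These ratios were not tested.

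**Figure D4:**
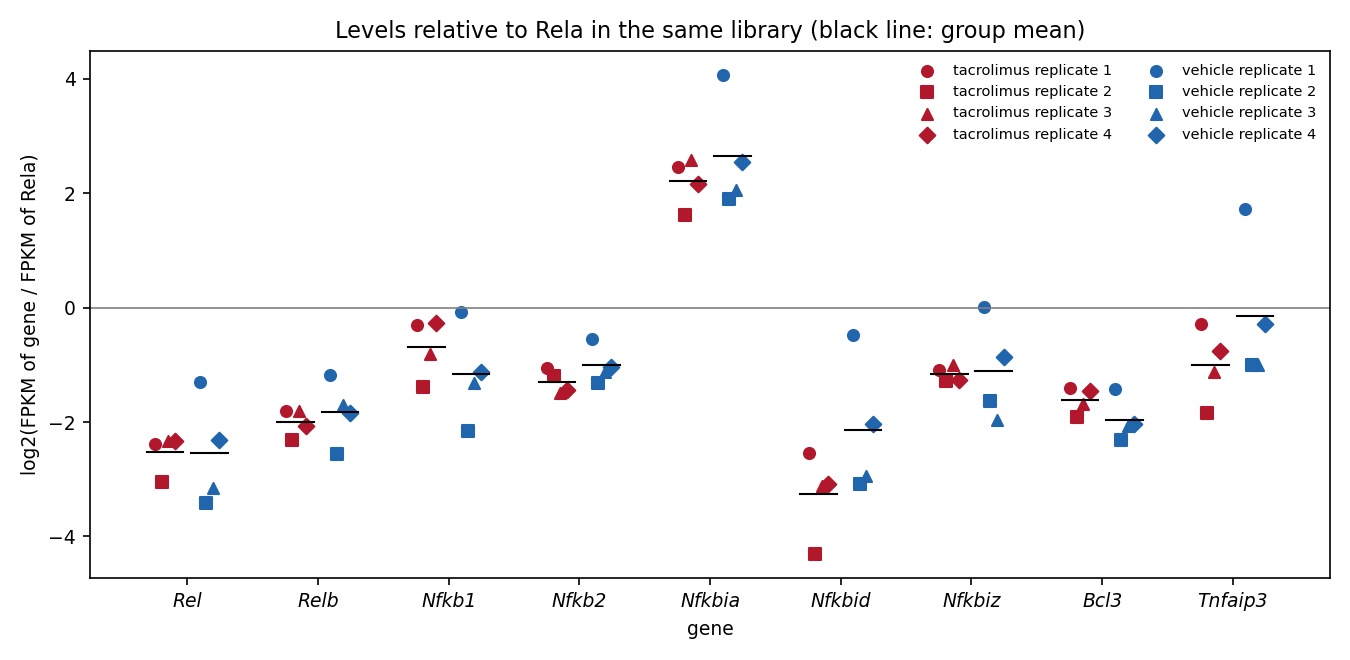
Log2 ratio of the FPKM of 9 genes to that of Rela in the same library, tacrolimus in red and vehicle in blue, with a black line at each group mean. The groups overlap for every gene, and vehicle replicate 1 reaches 4.07 for Nfkbia and 1.72 for Tnfaip3.

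Other genes of the pathway were read from 5 lists of known pathway members, which hold 112 genes besides the 10. Of these, 92 were tested, 6 genes stand in a pair of lists, and none passed the adjusted threshold in limma. At an unadjusted p under 0.05, 44 of the 92 were lower with tacrolimus (47.8%, against 15.8% of all tested genes) and none was higher. After median-of-ratios scaling 20 of them were lower (21.7%, against 6.15%) and 1 was higher. Beside the list counts that follow, 75.7% of all tested genes had a lower mean in the main fit and 50.2% after median-of-ratios scaling. The pathway genes share the 8 libraries and their mix of cells, so the counts are not independent of each other. The lists were also chosen with earlier results of these data known, so these shares only describe the listed genes.

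Receptors that signal to NF-kB had a median log2 difference of -0.91, with 14 of 14 tested members lower and 8 at an unadjusted p under 0.05. After median-of-ratios scaling 11 of 14 were lower, 5 were at that p and the median was -0.78. For Tnfrsf1b, the TNF receptor prominent on T cells, the tacrolimus mean was 4.07 ± 2.30 FPKM and the vehicle mean 18.1 ± 13.5. Tnfrsf4, the costimulatory receptor OX40, was at 7.35 ± 6.20 and 35.5 ± 27.9 FPKM. Cd27, another costimulatory TNF receptor family member, was at 4.67 ± 2.54 and 20.2 ± 17.5 FPKM. Il18rap, a chain of the interleukin 18 receptor, was at 0.28 ± 0.22 and 2.48 ± 1.68 FPKM. It was below 1 FPKM in every tacrolimus library and met the filter through the vehicle libraries alone. Its lower level with tacrolimus was therefore fixed by passing the filter, and it is among the 14 and the 8 counted above. Without vehicle replicate 1 the vehicle means were 11.4 for Tnfrsf1b, 21.7 for Tnfrsf4, 11.6 for Cd27 and 1.67 for Il18rap. Tnfrsf1a, the broadly expressed TNF receptor, was at 40.0 ± 4.45 and 48.0 ± 8.29 FPKM.

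Ligands were less often measurable: 7 of 14 were tested, all 7 were lower with a median of -1.02, and 2 were at an unadjusted p under 0.05. After median-of-ratios scaling 6 were lower, 2 were at that p and the median was -0.83. Ltb, which encodes lymphotoxin beta, a ligand of the alternative pathway, was at 7.23 ± 3.81 and 26.7 ± 19.4 FPKM (vehicle mean 17.4 without replicate 1). Tnfsf4, the ligand of OX40, was at 1.06 ± 0.48 and 4.17 ± 2.50 FPKM. Il1b and Il1a, the interleukin 1 cytokines, overlapped between the groups, with Il1b at 25.3 ± 3.41 and 101 ± 115 FPKM (vehicle mean 45.8 without replicate 1) and Il1a at 5.55 ± 1.55 and 16.0 ± 15.9 FPKM (8.15 without it).

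Kinases, adaptors and ubiquitin enzymes between the receptors and NF-kB had a smaller median difference of -0.45. Of 31 tested, 29 were lower and 14 were at an unadjusted p under 0.05. After median-of-ratios scaling 27 were lower, but only 4 were at that p, and the median was -0.24. Prkcq, the protein kinase C theta of the T cell receptor branch, was at 3.25 ± 0.32 and 7.42 ± 2.31 FPKM. Ikbkb, the catalytic IkB kinase beta, was at 12.2 ± 1.51 and 22.7 ± 6.59 FPKM. Tank, an adaptor of TRAF proteins, was at 26.2 ± 3.03 and 39.3 ± 6.18 FPKM, and Myd88, the adaptor of Toll-like and interleukin 1 receptors, at 9.25 ± 1.02 and 16.1 ± 4.41 FPKM. Tab2, which links the kinase TAK1 to ubiquitin chains, was at 8.52 ± 0.77 and 8.56 ± 1.41 FPKM.

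Of 15 other inhibitors, all were tested, 12 were lower, a share close to the 75.7% of all tested genes, and 7 were at an unadjusted p under 0.05, with a median of -0.33. After median-of-ratios scaling 11 were lower (50.2% of all tested genes), 5 were at that p and the median was -0.11. Pdlim2, a nuclear ubiquitin ligase acting on p65, was at 5.62 ± 0.59 and 12.1 ± 4.02 FPKM. Cyld, a deubiquitinase that restrains IkB kinase activation, was at 5.92 ± 1.20 and 10.6 ± 1.52 FPKM. Nfkbie, which encodes IkB-epsilon, was at 3.51 ± 0.56 and 8.70 ± 4.21 FPKM, and Tnip1, a partner of A20, at 11.2 ± 1.58 and 17.7 ± 2.72 FPKM. Known NF-kB target genes had a median of -0.93, with 31 of 31 tested lower and 18 at an unadjusted p under 0.05. After median-of-ratios scaling 29 were lower, 7 were at that p and the median was -0.73. Besides Nfkbie and Tnip1, which are in that list too, Irf1, an interferon regulatory factor, was at 12.3 ± 2.60 and 34.9 ± 24.3 FPKM, and Tnip3 at 2.12 ± 0.84 and 7.08 ± 4.31 FPKM. Among targets at high levels, Sod2, the mitochondrial superoxide dismutase, was at 109 ± 7.78 and 114 ± 11.4 FPKM and Ier3 at 193 ± 26.8 and 201 ± 50.6 FPKM, each overlapping between the groups. Without vehicle replicate 1 the medians were -0.65 for receptors, -0.48 for ligands, -0.39 for signaling genes, -0.22 for other inhibitors and -0.56 for targets, beside -0.24 over all tested genes.

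**Figure D5:**
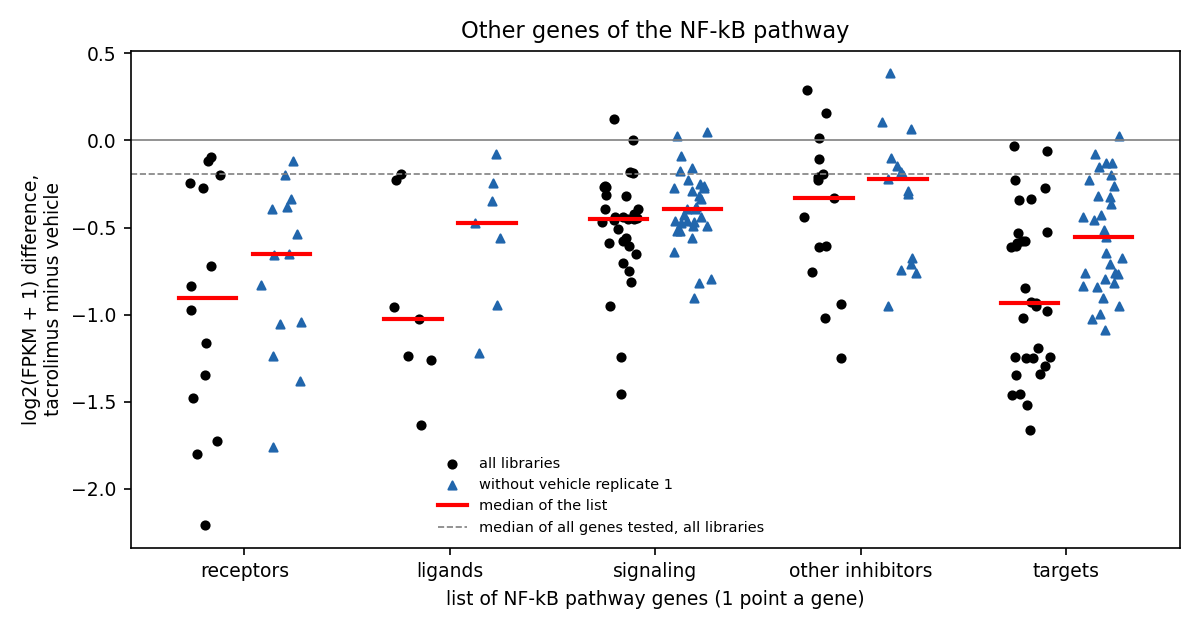
Difference of log2(FPKM + 1), tacrolimus minus vehicle, for each tested gene of 5 NF-kB pathway lists, with all libraries (black) and without vehicle replicate 1 (blue triangles); red lines mark list medians and the dashed line the median of all tested genes. With all libraries the medians run from -1.02 for ligands to -0.33 for other inhibitors, and the medians of ligands, targets and receptors shift most when that library is left out.

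The genes whose profile over the 8 libraries was most like the mean of the 10 were Glrx, Zfp36l2, Mxd1, Rabgap1l and Samhd1, out of 8575 candidates at a mean of 5 FPKM or more. Likeness is the root mean square difference of centred log2(FPKM + 1) values, and it was 0.12 for Glrx, 0.13 for Zfp36l2 and Mxd1, and 0.15 for Rabgap1l and Samhd1. Glrx, a glutaredoxin, was between 14.8 and 21.4 FPKM with tacrolimus, between 25.4 and 27.8 in vehicle replicates 2 to 4 and at 72.8 in vehicle replicate 1. Among the 10 genes themselves, Rel was nearest to their common profile (0.17), and Tnfaip3 (0.53), Rela (0.44) and Nfkbid (0.41) were farthest.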

How the data were processed

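RNA sequencing of 8 libraries, 4 tacrolimus and 4 vehicle, was read from the files as the authors deposited them. No header or label names the unit. It was taken to be FPKM, since the deposited values carry 2 decimals and sum to 890182 to 926808 per library. Per the submitters' processing notes, HISAT2 2.1.0, RSEM 1.3.1 and DESeq2 1.24.0 were used with GRCm38.p6, in no stated role or order. Steps in low values of genes with 1 transcript imply 15900000 to 19900000 fragments per library (87.9% to 90.7% of these values lay within 0.15 of a whole multiple, where even spread gives 30%). Counts were not recovered, and no count model was used. These values therefore carry the length and depth scaling of the authors.

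Symbols and coordinates came from the GENCODE annotation of GRCm38. Values were transformed to log2(FPKM + 1), genes reaching 1 FPKM in 4 libraries or more were tested, and limma 3.58.1 (trend; R 4.3.3) compared the groups with Benjamini-Hochberg adjustment over 13032 genes at 0.05. Fold changes on this scale understate those of low genes. The fit was tested on simulated data. The genes and lists were chosen with earlier results of these data known. The text names all 10 genes, the 4 genes with the smallest unadjusted p in each list, the 5 most like genes and a few cell markers. Tnfrsf1a, Tab2, Sod2 and Ier3 were added after their values were seen. Alternatives were other pseudocounts, filters and scalings, robust variance, the replicate block and each library left out. Python 3.11.15 and matplotlib 3.10.9 drew the plots. No library duplicated another (at most 0.222% of values identical in a pair).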

Additional observations from a re-analysis of the deposited data

Results flagged for a closer look

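Vehicle replicate 1 lay far from the other 3 vehicle libraries, by Dixon's ratio, for 5 of the 10 genes: Nfkb2 at 22.2 FPKM, Nfkbia at 543, Nfkbid at 23.2, Bcl3 at 12.1 and Tnfaip3 at 106. All 5 are high values of the same library, and no tacrolimus library was singled out in this way. Of the 20 groups of 4 values examined, about 1 in 20 would be singled out by chance if values were normal and groups independent. The ratio was taken on FPKM without logs, and the 10 genes share the same libraries. The 5 values can therefore not be set against that rate. The same library also had the highest summed T cell and macrophage markers, 2216 and 2087 FPKM, and the part of these in the 5 values was not tested.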

How the results depend on the processing

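None of the 10 genes passed the adjusted threshold under any alternative, and the lowest adjusted p was 0.0711, for Nfkb2 with the replicate block. Median-of-ratios and upper-quartile scaling each left 3 of 6 genes at an unadjusted p under 0.05 and 2 of 5 without overlap. Robust variance, no filter on low values and leaving out tacrolimus replicate 2 each left 4 (Rela, Relb, Nfkb2 and Nfkbid). Over all tested genes, 2008, 2537 (of 28614) and 1592 were then lower at that p. Without vehicle replicate 3, 7 of the 10 were at that p, beside 2031 lower over all tested genes. The 2 scalings gave 20 and 22 pathway genes at that p in place of 44. They changed the counts over all genes from 2056 lower and 208 higher to 801 and 675, and to 778 and 723. Leaving out 1 library at a time gave 29 to 53 such pathway genes (29 without tacrolimus replicate 2), beside 1313 to 2500 lower over all tested genes. These fits called 0 or 1 gene over the whole table, the 1 being Gm37167, higher with tacrolimus without vehicle replicate 1. The Nfkb1 difference ran from -0.48 to 0.18 in these fits, positive only without vehicle replicate 1. Median-of-ratios scaling without vehicle replicate 1, added after seeing the data, left 2 of the 10 lower at an unadjusted p under 0.05. Over all 13032 tested genes, 732 were lower at that p. It left 2 of the 10 without overlap, beside 882 of all tested genes, and 15 of 92 pathway genes at that p (16.3%). It called 1 gene (Gm37167), and the median of the 10 was -0.32. Under it Rel (0.037), Nfkb1 (0.41) and Bcl3 (0.12) turned positive. With the replicate number as a block, 121 of the 13032 tested genes passed, none of them among the 10. Of the 92 tested pathway genes, 5 passed (Cd27, Ltb, Tnfrsf1b, Tnfrsf4 and Tnfrsf9, all lower). Same-numbered libraries deviated together for replicates 1 and 2 (r = 0.21 and 0.28 across genes) but not for 3 and 4 (-0.02 each), and not every tacrolimus library correlated best with its own number, so the numbers were not taken as pairs. With 1 mismatch allowed, all 12 promoter windows held the NF-kB consensus, as did 63.2% of all windows. The causes of these changes were not tested. With 4 libraries per group, the 95% intervals ran from -1.02 to -0.33 for Rela, the narrowest, and from -2.78 to -0.16 for Tnfaip3, the widest.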
